A study of Mus musculus with 14 samples.

Results

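The 10 genes described here build and colour the melanosome: Mitf, Sox10, Mc1r, Tyr, Tyrp1, Dct, Pmel, Mlana, Slc45a2 and Oca2. Their DNA copy level was read in single cells of mice that carried B16F10 melanoma and in control cells. Each gene was given the genome bin that holds its midpoint and the bin on either side, 3 of the 4880 bins of the series. The value of every cell was divided by the median of its own chromosomes 1 to 19, so that a level of 1 is the autosomal median of that cell. Such a level is relative: it does not give a number of copies, and it does not measure expression. All 10 genes were found, in 10 different bins, and all 3 bins of each gene passed the filter described below.

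The series sequenced whole genomes of single cells after MALBAC, a whole-genome amplification whose products form loops and so are copied nearly linearly. B16F10 is a metastatic, pigmented melanoma line of the C57BL/6J mouse, and the study asked, by its title, about cells in circulation that may be hybrids of tumor cells and leukocytes. Female C57BL/6J mice of 6 to 8 weeks had received B16F10 cells that carried a fluorescent label, with no drug, and 9 samples came from them (C1L, C1N, C1R, C2N, C2R, C3R, P1, P2 and P4). They held 43 circulating tumor cells (CTC) in 5 samples, 450 cells of the class DP in 9 samples and 46 white blood cells (WBC) in 6 samples, sorted from blood and lung. Control samples, 1 for each kind, came from the cultured line (22 cells) and from WBC of untreated animals (21 cells), and 3 more were labelled CDP (18 cells), Duplike (24) and PltLike (24). Those 3 kinds also bear the labels C57BL/6J, female, 6 to 8 weeks and naive. The descriptions do not spell out DP, CDP, Duplike or PltLike, name no sort marker, and do not say whether a sample is 1 mouse. P-values therefore measure the spread between samples, which may be technical. The values are DNA coverage, so the cell classes could not be set against expression markers.

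Melanocytes make melanin inside melanosomes, organelles related to lysosomes. Alpha-melanocyte-stimulating hormone binds the receptor MC1R, cyclic AMP rises, and the transcription factor MITF, which also depends on SOX10, switches on the pigment genes. PMEL and MLANA shape the organelle, TYR, TYRP1 and DCT carry out melanin synthesis, and SLC45A2 and OCA2 keep the pH and ions of the organelle suited to tyrosinase. B16 cells are known for making pigment, and amplification of MITF is known in a share of human melanomas.

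The sequence that ties several of these genes to MITF is its site in their promoters. TCATGTG, known as the M-box, was searched on both strands of the RefSeq promoters of GRCm38.p6 (mm10). The search ran from 250 bases before to 50 bases after the start set for each promoter. That start can differ from the start of the gene span given below, as it does for Tyrp1. Over all promoters 1239 of 32851 (3.77%) held the motif. Of the 10 genes 6 had a promoter in the table (no entry: Sox10, Pmel, Mlana and Slc45a2). Of those 6, Tyrp1, Tyr, Mc1r and Dct held the motif, Dct with 2 matches, and Mitf and Oca2 did not. Counted by promoter, as in the share over all promoters, 4 of their 8 promoters (50%) held it. The stretches are shown, 5′ to 3′ on the strand of the gene, because they show the element that these genes share; capitals mark the motif, which reads as its reverse complement in the distal match of Dct.
Tyrp1, chr4:80834154-80834183, plus strand: gtggggagggagTCATGTGctgcctagtag
Tyr, chr7:87493517-87493546, minus strand: agaaaaagttagTCATGTGctttgcagaag
Mc1r, chr8:123407018-123407047, plus strand: ggcacatgcccaTCATGTGgccaccctcag
Dct proximal, chr14:118052380-118052409, minus strand: gtgcacttagggTCATGTGctaacaaagag
Dct distal, chr14:118052461-118052490, minus strand: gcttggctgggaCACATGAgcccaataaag
A match describes the letters only. The copy levels below come from bins of about 0.5 Mb and say nothing about single sites.

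In mm10 the transcription factor genes are Mitf at chr6:97807002-98021360 and Sox10 at chr15:79154913-79164490. The receptor gene Mc1r lies at chr8:123407082-123410744. The enzyme genes are Tyr at chr7:87424771-87493512, Tyrp1 at chr4:80834123-80851736 and Dct at chr14:118012790-118052246. The matrix genes are Pmel at chr10:128695888-128720238 and Mlana at chr19:29697541-29708447, and the transporter genes are Slc45a2 at chr15:11000721-11029233 and Oca2 at chr7:56239593-56536518. For 8 genes the whole gene lay inside the central bin; for Mlana 81.5% and for Oca2 65.6% of the gene did. Tyr and Oca2 share chromosome 7, and Slc45a2 and Sox10 share chromosome 15, in separate bins. The bins hold other genes too, from 1 protein-coding gene in the central bin of Tyrp1 to 29 in that of Pmel, so a level belongs to the neighbourhood and not to the gene alone.

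The autosomal medians of the 648 cells gathered at 5 coverage levels, with medians of 1.82, 3.72, 5.64, 7.75 and 9.59. All WBC stood at the lowest level and all CTC, culture and PltLike cells at the second. DP cells were spread over all 5, with 177, 219, 29, 9 and 16 cells. Values of 621 cells stop at exactly 10, and a bin was dropped where at least 1% of the cells stood at that ceiling. Among the windows used here the ceiling was met in 5 cells for Mitf, 1 each for Mc1r, Tyr and Tyrp1 and none for the other 6 genes. Read counts were not part of the values used here, so the depth is unknown; the bin-to-bin noise of the cells ran from 0.133 to 0.263 on the log2 scale.

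The culture was set beside naive WBC to describe the line itself. With 1 sample on each side this is a description without a test. Of the 10 genes Mitf stood at least 0.3 higher (log2), as did 10.1% of all 4376 windows of 3 bins. Dct, Pmel and Slc45a2 stood at least 0.3 lower, as did 21.7% of windows. Mitf was 1.47-fold higher in the culture (0.56 in log2), Dct lower by 0.50, Pmel by 0.42 and Slc45a2 by 0.31. The other 6 genes lay within 0.06 of naive WBC. The pigment genes of the line thus stood at unlike relative levels: the regulator Mitf at 1.52 ± 0.12 (SD, 22 cells) and the enzyme gene Dct at 0.702 ± 0.0552. In naive WBC these were 1.02 ± 0.0592 and 1.01 ± 0.0678 (SD, 21 cells). Tyr stood at 1.16 ± 0.19 in the culture and, with little difference, at 1.11 ± 0.106 in naive WBC.

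**Figure D1:**
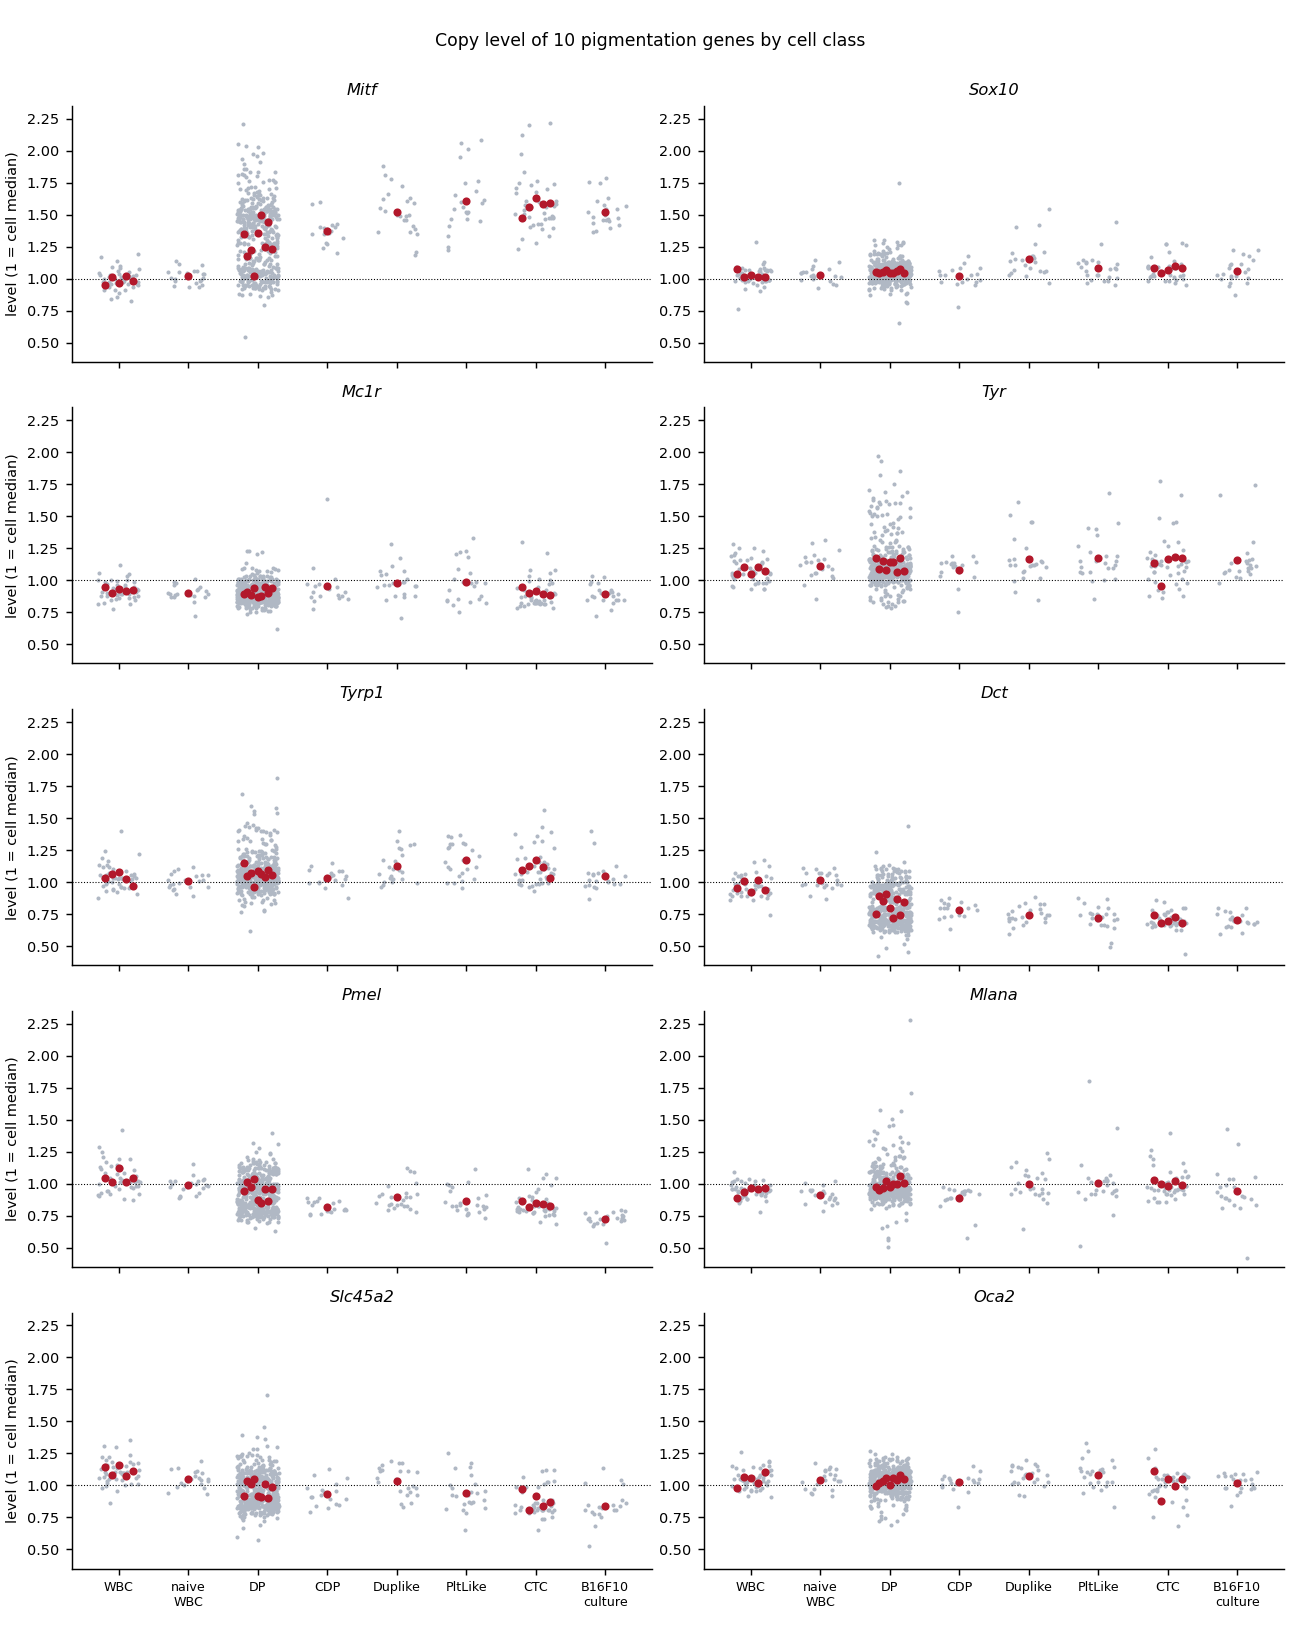
Copy level (vertical axis, 1 = autosomal median of the cell) of the 10 genes in the 8 cell classes; grey points are single cells and red points the mean of a sample with at least 3 cells. The CTC and culture means of Mitf lie above and those of Dct below all WBC means, and DP cells span both ranges.

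CTC were set against the WBC of their own samples to ask whether tumor cells from the animals carry these differences. Mitf and Tyrp1 were higher in CTC, against 19.8% of all windows called higher. Dct, Pmel and Slc45a2 were lower, against 30.6% of windows called lower. The other 5 genes were not called. The median difference was 0.011 over the 10 genes and -0.020 over all windows. Differences here and below are on the log2(level + 0.05) scale, with class means paired within 5 samples (C1L, C1N, C1R, C2R and C3R, each with 3 or more cells per class), limma with the sample as a block, and Benjamini-Hochberg adjustment at 5% over 4376 windows.

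To ask the same of DP cells, they were set against the WBC of their own samples. Mitf was higher in DP cells, beside 15.3% of windows, and Dct, Pmel and Slc45a2 were lower, beside 25.8% of windows. The other 6 genes were not called, and their differences from WBC lay between -0.054 and 0.070. Dividing by the mean in place of the median of the autosomes moved all bins of WBC by -0.22, of DP cells by -0.14 and of CTC by -0.11. With it 7 genes were called in DP minus WBC and 9 in CTC minus WBC, with 5 higher and 2 lower in the first and 6 higher and 3 lower in the second. Sox10, Tyr, Tyrp1 and Mlana then were called higher in both comparisons, Pmel was not called in the first, and Mc1r turned to higher in the second. Over all windows that scaling moved the higher share of the calls from 37.3% to 70.4% in DP minus WBC and from 39.3% to 66.2% in CTC minus WBC. Mitf stayed higher and Dct and Slc45a2 lower under each scaling in both comparisons.

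**Figure D2:**
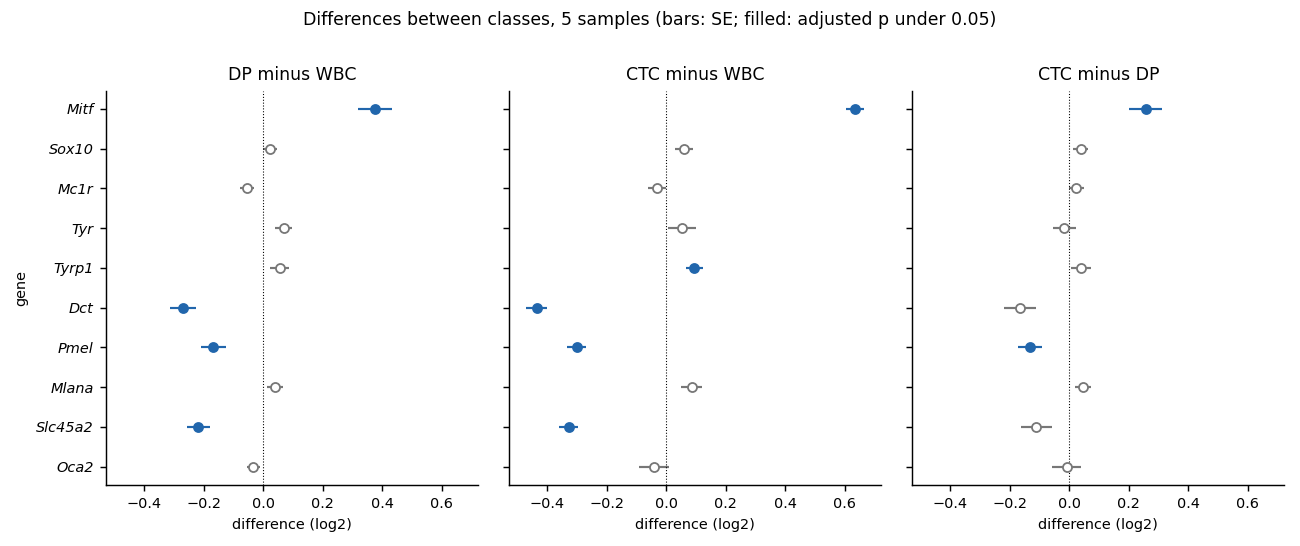
Difference between classes (horizontal axis, log2) for the 10 genes in 5 samples, from limma with the sample as a block; bars are standard errors and filled points have an adjusted p under 0.05. Mitf lies to the right and Dct, Pmel and Slc45a2 to the left of 0 in DP minus WBC and CTC minus WBC.

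Among the transcription factors, Mitf, which directs the melanocyte programme, showed the highest level of all 10 genes in CTC. Its mean level in CTC was 1.47 in C1L, 1.56 in C1N, 1.63 in C1R, 1.58 in C2R and 1.59 in C3R. In WBC of these samples it was 0.953, 1.02, 0.968, 1.02 and 0.982. No CTC sample overlapped a WBC sample. CTC minus WBC was 0.63 (SE 0.031, adjusted p = 6.6e-09, limma), higher in 5 of 5 samples. In DP cells the means were 1.35, 1.18, 1.22, 1.36 and 1.5 in the same 5 samples, all between the WBC and CTC means of the sample. C1N and C1R were lowest. DP minus WBC was 0.38 (SE 0.057, adjusted p = 0.0089, limma), higher in 5 of 5. In the samples without CTC the DP means of Mitf were 1.02 in C2N, 1.25 in P1, 1.44 in P2 and 1.23 in P4. The DP cells of C2N and P2 came from lung only and those of P4 from blood only. Sox10, which acts upstream of Mitf in the neural crest lineage, stayed close to 1. In the 5 samples compared its means ran from 1.04 to 1.10 in CTC, from 1.04 to 1.05 in DP cells and from 1.01 to 1.08 in WBC, and these ranges overlapped. Its differences were 0.060 for CTC minus WBC (SE 0.030, adjusted p = 0.12, limma) and 0.023 for DP minus WBC (SE 0.023, adjusted p = 0.51).

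The receptor gene Mc1r stood a little below 1 in every class. Its sample means were 0.885 to 0.946 in CTC, 0.868 to 0.912 in DP cells and 0.9 to 0.945 in WBC of the 5 samples compared. CTC minus WBC was -0.031 (SE 0.029, adjusted p = 0.42, limma) and DP minus WBC was -0.054 (SE 0.024, adjusted p = 0.13). These window means hide unlike bins, which are described below: with the central bin alone Mc1r was called lower, at -0.18 in CTC minus WBC (adjusted p = 0.0014, limma) and -0.13 in DP minus WBC (adjusted p = 0.025).

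The 3 melanin enzyme genes differed among themselves. Dct codes for dopachrome tautomerase, which acts late in the pathway. In CTC its level was 0.741 in C1L, 0.676 in C1N, 0.696 in C1R, 0.725 in C2R and 0.678 in C3R. In WBC it was 0.955, 1.01, 0.922, 1.01 and 0.938, with no overlap. CTC minus WBC was -0.44 (SE 0.036, adjusted p = 4.9e-07, limma), lower in 5 of 5 samples. DP cells stood at 0.750, 0.887, 0.852, 0.800 and 0.721 and were again below the WBC of each sample, by 0.27 on average (DP minus WBC -0.27, SE 0.043, adjusted p = 0.0089). Tyrp1, whose enzyme stabilises tyrosinase and shapes the kind of melanin, was higher in CTC than in WBC in 5 of 5 samples, but only by 0.094 (SE 0.029, adjusted p = 0.016, limma). Its CTC means were 1.10, 1.12, 1.17, 1.12 and 1.03 and its WBC means 1.03, 1.06, 1.08, 1.02 and 0.973, so that the groups overlapped. The call was lost without C1R (adjusted p = 0.054), without C2R (0.070), with blood cells only (0.10), lung cells only (0.31), cells at or below the median noise (0.18) and the pseudocount on the deposited value (0.12). Tyr codes for tyrosinase, the rate-limiting enzyme. Its CTC means were 1.14, 0.955, 1.17, 1.19 and 1.18, with C1N apart from the others, against 1.05, 1.10, 1.05, 1.10 and 1.07 in WBC. It was not called in CTC minus WBC (0.053, SE 0.047, adjusted p = 0.39) or DP minus WBC (0.070, SE 0.029, adjusted p = 0.11). Without C1N it was called in both, at 0.12 (adjusted p = 0.0061) and 0.092 (adjusted p = 0.042).

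Of the matrix genes, Pmel, whose product forms the fibrils on which melanin is laid down, was lower in tumor cells. Its CTC means were 0.862, 0.821, 0.851, 0.845 and 0.823 in C1L, C1N, C1R, C2R and C3R. Its WBC means were 1.04, 1.01, 1.13, 1.01 and 1.05. The groups did not overlap, and CTC minus WBC was -0.30 (SE 0.032, adjusted p = 4.1e-06, limma). The culture stood at 0.725 ± 0.0544 (SD, 22 cells), below each of the CTC means, a difference with no test since the culture is 1 sample. DP cells lay at 0.943, 1.01, 0.975, 0.876 and 0.850. DP minus WBC was -0.17 (SE 0.042, adjusted p = 0.018, limma), but in C1N the difference was only -0.0012. The call was lost without C1L, C1R, C2R or C3R, with adjusted p of 0.061, 0.054, 0.070 and 0.055. Mlana, also called Melan-A or MART-1, a partner of PMEL in melanosome maturation, had sample means of 0.980 to 1.03 in CTC and 0.890 to 0.965 in WBC. These ranges did not overlap, yet CTC minus WBC was 0.085 (SE 0.034, adjusted p = 0.060, limma) and the gene was not called. It gained a call in 3 of the alternative settings, scaling by the mean among them, and stayed uncalled in 17.

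Of the transporter genes, Slc45a2, which sets melanosome pH, was lower in tumor cells. Its CTC means were 0.973, 0.811, 0.916, 0.843 and 0.868 and its WBC means 1.15, 1.08, 1.16, 1.07 and 1.11. The groups did not overlap, and CTC minus WBC was -0.33 (SE 0.032, adjusted p = 2.4e-06, limma), lower in 5 of 5 samples. DP means were 0.919, 1.03, 1.01, 0.918 and 0.910, each below the WBC mean of its sample. DP minus WBC was -0.22 (SE 0.038, adjusted p = 0.0089, limma). Oca2, a chloride channel gene of the melanosome, ran from 0.881 in C1N to 1.12 in C1L in CTC and from 0.978 to 1.11 in WBC. Its difference of -0.042 (SE 0.050, adjusted p = 0.53, limma) was not called.

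CTC and DP cells were compared directly in the same 5 samples. Mitf was higher in CTC by 0.26 (SE 0.055, adjusted p = 0.021, limma), beside 11.8% of windows called higher. Pmel was lower by 0.13 (CTC minus DP -0.13, SE 0.040, adjusted p = 0.042), beside 18.5% of windows. The other 8 genes were not called, Dct lying nearest at -0.17 (SE 0.054, adjusted p = 0.054). The Mitf difference was 0.42 in C1N and 0.41 in C1R but 0.092 in C3R. No gene was called without C1N, without C1R or without C2R, where Mitf kept 0.22, 0.22 and 0.27 with adjusted p of 0.062, 0.079 and 0.072. CTC were also set against DP cells of the second coverage level only, a restriction chosen after the data were seen. There 0 of the 10 genes and 0.229% of windows were called in either direction (limma; 1 of the 10 and 305 of 4376 windows had an unadjusted p under 0.05). The Mitf difference was 0.013 (SE 0.025), that of Dct 0.0017 (SE 0.031), that of Pmel -0.026 (SE 0.029) and that of Slc45a2 0.0025 (SE 0.029). The difference between this fit and that with all DP cells was not tested.

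Split by coverage level, DP cells fell into groups with unlike pigment gene levels. At the lowest level Mitf stood at 1.03 ± 0.104 (SD, 177 cells), and its sample means ran from 1.02 to 1.06 over 9 samples. At the second level it stood at 1.53 ± 0.162 (219 cells), with means from 1.44 to 1.61 over 8 samples. No sample mean of one level reached the range of the other. At the third level Mitf lay between, at 1.34 ± 0.133 (29 cells). Dct ran the other way, at 0.957 ± 0.1, 0.702 ± 0.0779 and 0.783 ± 0.0471 from the lowest to the third level. Pmel stood at 1.04 ± 0.0939, 0.842 ± 0.0973 and 0.896 ± 0.0878, and Slc45a2 at 1.08 ± 0.104, 0.881 ± 0.106 and 0.934 ± 0.108. Tyrp1 was 1.00 ± 0.0837 at the lowest and 1.11 ± 0.156 at the second level. Sox10 (1.04 and 1.06), Oca2 (1.03 and 1.04) and Mlana (0.987 and 1.01) differed little between those levels. For Mitf and Dct the DP cells of the lowest level lay within 0.05 of the WBC mean, and those of the second level within 0.06 of the CTC mean. The level was taken from the median coverage of the cell and not from these genes.

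Mitf and Dct together show the same split in single cells. The highest Mitf level in 67 WBC (46 of tumor-bearing and 21 of naive mice) was 1.19 and the lowest Dct level 0.744, limits that leave no WBC outside by construction. Above the first and below the second lay 34 of 43 CTC (79.1%, exact 95% interval 64.0 to 90.0) and 16 of 22 culture cells (72.7%, 49.8 to 89.3). Of the DP cells 181 of 450 (40.2%, 35.7 to 44.9) did so, namely 169 of 219 at the second coverage level but 1 of 177 at the lowest. Another 93 DP cells passed the Mitf limit alone, 4 the Dct limit alone and 172 neither. By sample the share ran from 0 of 15 DP cells in C2N (exact 95% interval 0 to 21.8), over 8.33% in C1N and 29% in P1 to 70.4% in C3R. All DP cells of C2N came from lung and all of C3R from blood, so sample and tissue cannot be told apart there. Within C1R 15 of 23 blood and 1 of 34 lung DP cells passed both limits, but within P1 6 of 46 blood and 21 of 47 lung cells. The ratio of the Mitf to the Dct level was 2.27 ± 0.340 in CTC (SD over cells), 2.19 ± 0.281 in the culture, 1.71 ± 0.575 in DP cells, 1.76 ± 0.201 in CDP cells and 1.03 ± 0.109 in WBC. These intervals cover counting error only and not the differences between samples.

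**Figure D3:**
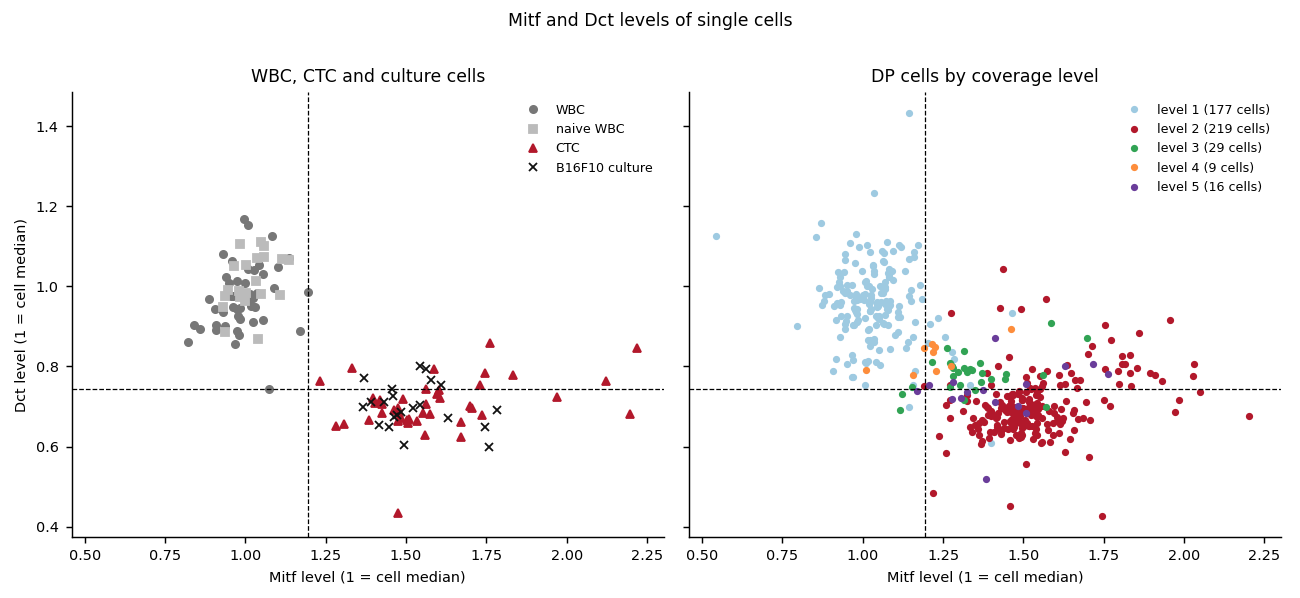
Mitf level (horizontal axis) against Dct level (vertical axis) of single cells, 1 being the autosomal median of the cell; the left panel shows WBC, naive WBC, CTC and culture cells, the right panel DP cells coloured by coverage level. Dashed lines mark the highest Mitf level (1.19) and the lowest Dct level (0.744) among WBC; most DP cells of the second level lie at the lower right and those of the lowest level with the WBC.

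Blood and lung DP cells were compared in C1L, C1N, C1R, C2R and P1, which had 3 or more DP cells of either tissue. Of the 10 genes 0 were called, as were 0% of the windows in either direction (limma; 1 gene and 432 of 4376 windows had an unadjusted p under 0.05). The samples did not run the same way. Mitf was higher in blood DP cells by 0.44 in C1L, 0.29 in C1N, 0.45 in C1R and 0.33 in C2R, but lower in P1 (-0.25). The Dct difference, blood minus lung, was -0.42, -0.093, -0.40 and -0.30 in these 4 samples and 0.19 in P1. Without P1, 5 genes were called: Mitf (0.38, adjusted p = 0.00020, limma) and Tyrp1 (0.16, adjusted p = 0.0015) were higher in blood, beside 19.9% of windows. Dct (-0.30, adjusted p = 0.0022), Pmel (-0.16, adjusted p = 0.036) and Slc45a2 (-0.17, adjusted p = 0.0027) were lower, beside 26.9% of windows. P1 is also a sample without CTC or WBC. Within a coverage level, again a split added after seeing the data, the values were as follows. The Mitf difference was -0.059 (SE 0.054, 2 samples) at the second and 0.061 (SE 0.039, 3 samples) at the lowest level, and none of the 10 genes was called at either. Over all windows 0.137% were called at the second and 0% at the lowest level (limma; 252 and 241 of 4376 windows, and 0 and 1 of the 10 genes, had an unadjusted p under 0.05).

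**Figure D4:**
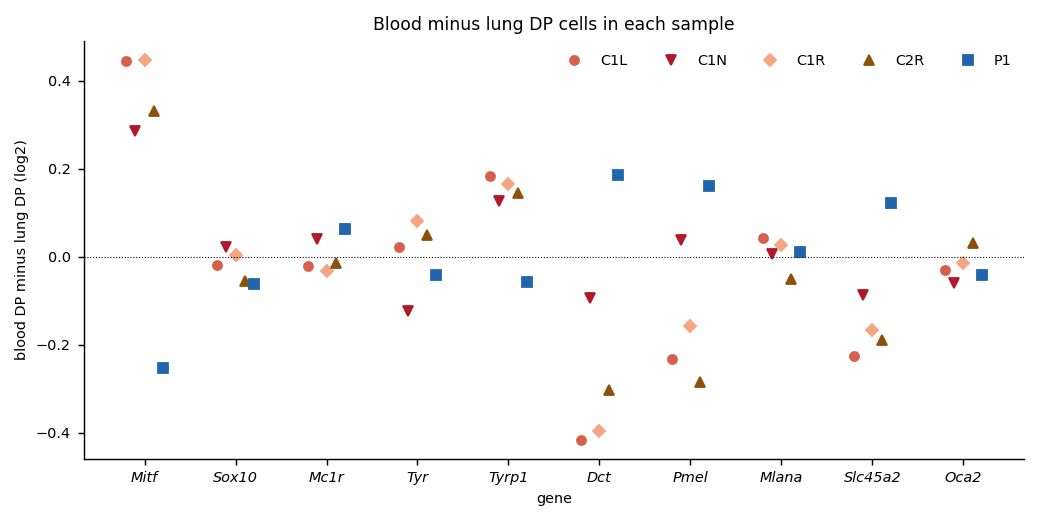
Mean of blood DP cells minus mean of lung DP cells (vertical axis, log2) for the 10 genes in each of the 5 samples with both tissues. For Mitf, Tyrp1, Dct and Slc45a2 the 4 C samples lie on one side of 0 and P1 on the other, while Sox10, Mc1r, Mlana and Oca2 stay within 0.07 of 0.

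DP and WBC were also compared within each tissue. In blood cells alone, DP minus WBC called Mitf (0.49, SE 0.051, limma adjusted p = 0.00030) higher, beside 17.5% of windows. Dct (-0.36), Pmel (-0.23) and Slc45a2 (-0.29) were called lower, beside 27.4% of windows, over 5 samples. In lung cells alone, where 3 samples could be paired, none of the 10 genes and 0% of windows were called (limma; 1 gene and 186 windows had an unadjusted p under 0.05). The lung difference of Mitf was 0.082 (SE 0.042) and that of Dct -0.11 (SE 0.033). Whether the tissues differ in this respect was not tested, and the lung DP cells of P1 (Mitf 1.36) and P2 (1.44) had no WBC to pair with.

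Levels varied between cells of a class as well as between classes. To compare this spread, the SD was taken over the log2 levels of 36 to 81 DP cells but only 3 to 13 WBC per sample. The SD over cells within a sample was wider in DP cells than in WBC for Mitf (2.89-fold, adjusted p = 0.00044, limma on the log2 SD), Dct (2.23-fold, adjusted p = 0.0027), Mlana (1.98-fold), Tyrp1 (1.80-fold), Tyr (1.74-fold) and Slc45a2 (1.66-fold). These are 6 of 10 genes, near the 55.3% of all windows that were wider in DP cells. With the DP cells of the second coverage level only, Mlana (1.32 in log2) and Tyr (1.01) were called wider, beside 13.4% of windows, and the Mitf difference fell to 0.41 (SE 0.28). None of the 10 was called with the DP cells of the lowest level or with the median absolute deviation as the measure.

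Mlana and Tyr varied most in cells of the line itself. In the culture Mlana ran from 0.423 to 1.42 over 22 cells, and its SD of 0.191 was above that of 97.6% of windows. Over those cells it followed the median of the rest of chromosome 19 (Pearson r = 0.96), as it did in DP cells of the second level (r = 0.85, 219 cells) and PltLike cells (r = 0.90, 24 cells). Such correlations share the denominator of the cell and are given as a description. Tyr had a tail of high cells: 2 of 22 culture cells, 2 of 43 CTC and 21 of 219 DP cells of the second level stood above 1.5. Of the DP cells of the lowest level 3 of 177 did, and of the WBC 0 of 67. Its correlation with the rest of chromosome 7 was 0.64 in the culture, 0.32 in CTC, 0.12 in DP cells of the second level and 0.27 in those of the lowest level. Slc45a2 (r = 0.91) and Sox10 (r = 0.85) both followed the rest of chromosome 15 over culture cells. Pmel did not follow the rest of chromosome 10 there (r = -0.13), and its SD was low (0.0544).

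The genes with a shifted level lay in long stretches that shifted together. The stretch, defined by a running median of 5 bins and a culture minus naive WBC difference of at least 0.2 in size, spanned 104 Mb around Mitf (chr6:45559526-149736546, median 0.51). Around Dct it spanned 70.8 Mb (chr14:54085779-124902244, median -0.38), around Pmel 37.8 Mb (chr10:92854304-130694993, -0.40) and around Slc45a2 32.9 Mb (chr15:1-32909188, -0.34). Mc1r also lay in such a stretch, of 28.9 Mb (chr8:99789303-128679366, -0.35), although its window mean did not shift. The stretches of Mitf, Dct, Pmel and Mc1r ran to the last kept bin of their chromosome. Sox10, Tyr, Tyrp1, Mlana and Oca2 lay in none.

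Single bins departed from these stretches at Mc1r and Dct, and at Mitf in CTC but hardly in the culture. The bin just before that of Mc1r (chr8:122445472-122956673, with 13 protein-coding genes including Aprt, Cdt1 and Piezo1) was higher by 0.28 in the culture and 0.24 in CTC than in naive WBC and WBC. The flanking bins had a median of -0.32 and -0.33, and the bin of Mc1r itself stood at -0.24 and -0.18. The step of this neighbouring bin above its flanks was 0.56 in C1L, 0.56 in C1N, 0.55 in C1R, 0.57 in C2R and 0.63 in C3R in CTC, and between -0.059 and 0.069 in WBC. The CTC and WBC samples did not overlap, and in DP cells the step ran from 0.024 in C2N to 0.54 in C3R and P2. The central bin of Dct (chr14:117707247-118230495, which holds Dct, Gpr180, Tgds and part of Gpc6) was lower by 0.76 in the culture and 0.61 in CTC, against flanks of -0.36 and -0.33. Its step was -0.24 in the culture, -0.31 to -0.094 in the 5 CTC samples and 0.031 to 0.18 in WBC. In Mitf the central bin stood 0.78 higher in CTC and 0.60 in the culture, against flanks of 0.51 and 0.51. Its step was 0.015 in the culture and -0.066 in naive WBC. In CTC the step ran from 0.017 in C1N to 0.27 in C1L and in WBC from -0.14 to -0.060, without overlap. The CTC of a sample varied widely in this step, with an SD over cells of 0.046 in C1N and 0.27 to 0.29 in the other samples. The central bin of Mitf stood at the ceiling in 4 cells of the series. These bins were singled out after their values were seen, so the steps carry no test.

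**Figure D5:**
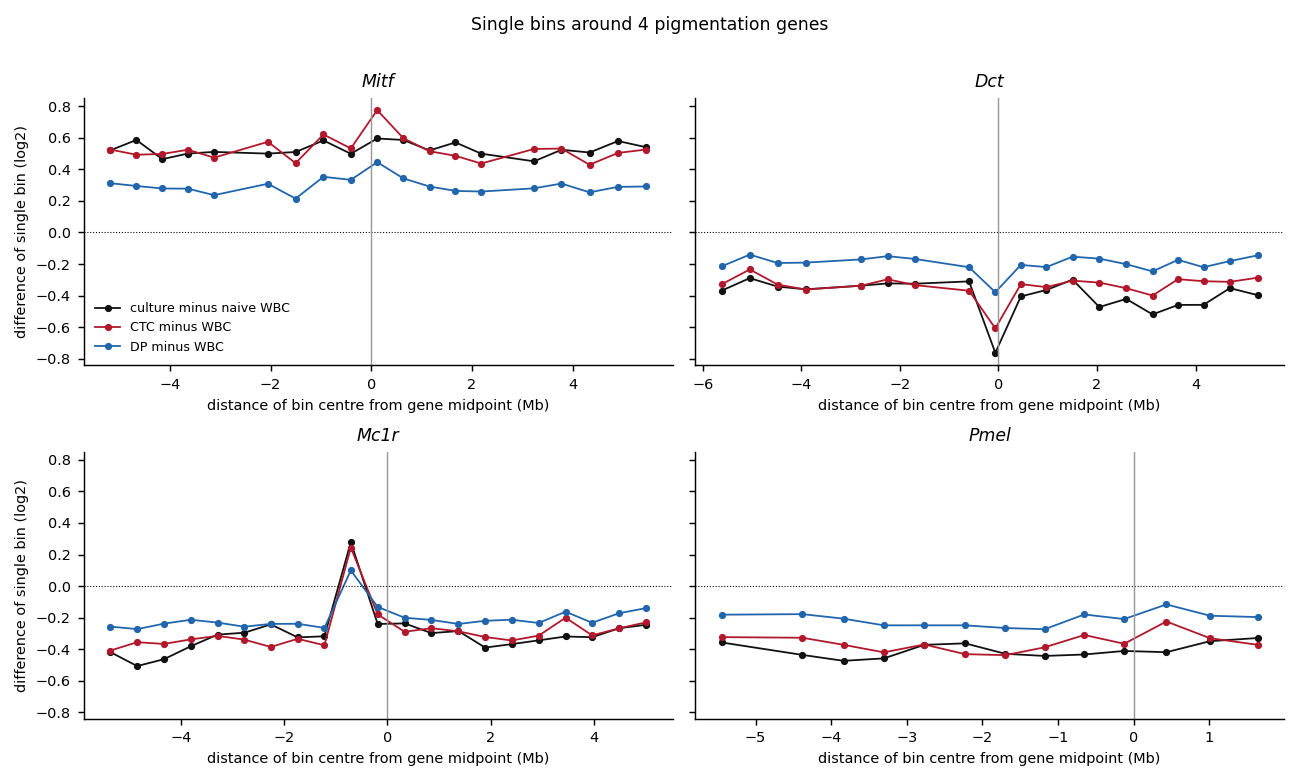
Difference of single bins (vertical axis, log2) by distance from the gene midpoint (horizontal axis, Mb) for culture minus naive WBC, CTC minus WBC and DP minus WBC (mean of 5 samples for the last 2). The bin before Mc1r rises to 0.28 in the culture within a lowered stretch, the bin of Dct falls to -0.76, and in the culture the bins around Mitf stay near 0.5 and those around Pmel near -0.4. The DP curves lie closer to 0, and the central Mitf bin reaches 0.78 in CTC minus WBC.

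Over the 8 classes the order of Mitf levels was PltLike (1.61 ± 0.233, SD over cells), CTC (1.59 ± 0.222), culture (1.52 ± 0.12), Duplike (1.52 ± 0.175), CDP (1.37 ± 0.101), DP (1.32 ± 0.273), naive WBC (1.02 ± 0.0592) and WBC (0.993 ± 0.0778). Neighbours in this order differed by less than the larger SD of the pair, except DP and naive WBC. Duplike and CDP differed by 0.150, more than the SD of CDP cells. For Dct the order ran from naive WBC (1.01 ± 0.0678) and WBC (0.970 ± 0.0821) over DP (0.811 ± 0.147), CDP (0.785 ± 0.0604), Duplike (0.742 ± 0.0674) and PltLike (0.720 ± 0.0908) to CTC (0.704 ± 0.0679) and culture (0.702 ± 0.0552). Only WBC and DP were further apart than the larger SD of the pair. For Pmel only CDP and culture were, and the other 7 genes showed no gap of that size. PltLike, Duplike and CDP cells bear naive labels, yet their Mitf and Dct levels lay nearer to CTC than to WBC. CDP cells, all at the third coverage level, lay between. Duplike cells were the highest class for Sox10 (1.16 ± 0.138), with 14 of 24 cells at the third level.

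Levels also varied between samples at 1 coverage level. Among DP cells of the second coverage level the 8 sample means of Mitf had an SD of 0.0569, and single cells within a sample a median SD of 0.152. A mean over cells varies less than single cells do, so these values do not say how far samples differ beyond their cells. For Dct these were 0.0210 and 0.0751, and for Tyr 0.0722 and 0.192. Mitf was lowest in P4 (1.44) and highest in C1N (1.61). Since C1N had among the lowest DP means over all levels, the order of samples was not the same with and without the lowest level.

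The 4 shifted genes were correlated over the 24 class-by-sample means, which share samples and the denominator of each cell. They were singled out by their differences between these same classes, so strong correlations follow from that choice. Dct ran against Mitf (r = -0.96), as did Pmel (r = -0.90) and Slc45a2 (r = -0.88). Of 40 other pigmentation genes on other chromosomes, the most like Mitf was Creb1 (r = 0.91). The most like Dct was Gpr143 (r = 0.96), which was also the most like Pmel (r = 0.92), and the most like Slc45a2 was Ednrb (r = 0.92). The remaining genes had weaker partners, down to Mc1r with Myo5a (r = 0.36). These are descriptions without a test.

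Of the 40 other pigmentation genes 4 were higher and 7 lower in CTC than in WBC, beside 19.8% and 30.6% of all windows, and 29 were not called, with a median of -0.017. In DP minus WBC 4 were higher and 5 lower, beside 15.3% and 25.8% of windows. In CTC minus DP 2 were higher and 3 lower, beside 11.8% and 18.5%, and in blood minus lung DP cells 0 were called, as for all windows. The higher genes were Gpnmb, a melanosome glycoprotein gene on chromosome 6 as Mitf is (0.59, SE 0.032, limma adjusted p = 1.4e-08), Hps3 (0.34) and Slc7a11 (0.28) on chromosome 3, and Creb1 (0.27), whose product answers to cyclic AMP. The 5 lowest were Gpr143, a melanosome receptor gene on X (-1.62, SE 0.035, limma adjusted p = 3.0e-12), and Hps4 (-0.47), which serves melanosome biogenesis. They further included Kitl (-0.39), the ligand of the receptor KIT, on chromosome 10 as Pmel is, Ednrb (-0.31), an endothelin receptor, on chromosome 14 as Dct is, and Lyst (-0.24). The hosts were female, the sex of the donor of the line is not in the labels, and X is measured against autosomes, so the Gpr143 value is not a count of lost copies. Atp7a, also on X, was not called in CTC minus WBC (0.052, SE 0.037, limma adjusted p = 0.27), so the Gpr143 value does not stand for the whole of X. By role, 3 of 14 signalling and transcription genes, 8 of 22 genes of melanosome structure and biogenesis and 0 of 4 melanosome transport genes were called in CTC minus WBC, beside 50.3% of all windows called in either direction.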

How the data were processed

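The deposited table holds a coverage signal per genome bin and cell, which the authors normalised and scaled; the deposited cell table gives class, tissue and batch, and the batch is the sample, which is where the pairing of classes comes from. Per the submitters' processing notes the tools included BWA, HISAT2, Picard, Trim Galore, featureCounts and SAMtools, and the build was mm10; the settings of bins, scaling and ceiling are not given in the sources used here. The 10 members and the lists were chosen with earlier results of these data known. Genes were placed by symbol in RefSeq's GRCm38.p6 table; of 41 other pigmentation genes 40 matched, and Asip did not.

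Each value was divided by the cell's median over chromosomes 1 to 19 and averaged over 3 bins. Of the autosomal and X bins, 338 at exactly 10 in 1% or more of the cells were dropped and 4120 autosomal and 256 X bins kept; 166 Y bins were not used. Window means were put on log2 with a pseudocount of 0.05, averaged per class and sample with at least 3 cells, and fitted with limma 3.58.1 (lmFit, eBayes; R 4.3.3), with the sample as a block and a threshold of 5%. The fit was tested on simulated data. All 10 members are named; of the other genes, up to 5 per direction called in CTC minus WBC with the largest difference. The genes most alike were taken from that list on other chromosomes by Pearson's r. Intervals given for shares are exact Clopper-Pearson 95% intervals. The alternatives changed the window, pseudocount, scaling, bin filter, cells, block and samples. Other steps ran in Python 3.11.15 with pandas 2.3.3, numpy 2.4.6, matplotlib 3.10.9 and scipy 1.17.1.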

Additional observations from a re-analysis of the deposited data

Results flagged for a closer look

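Sample P1 stood apart in the blood minus lung difference of DP cells. Mitf was at -0.25 in P1 against 0.29 to 0.45 in the 4 C samples, and Tyrp1 at -0.057 against 0.13 to 0.18, each further from the other samples than their spread allows. The difference also had the opposite sign in P1 for Dct (0.19, against -0.42 to -0.093) and Slc45a2 (0.12, against -0.23 to -0.087), as it had for Mitf and Tyrp1; that P1 differs from the C samples was not tested. In P1 6 of 46 blood and 21 of 47 lung DP cells lay beyond the WBC limits of Mitf and Dct.

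Single samples stood apart in 5 other values. The Tyr level of CTC was 0.955 in C1N, against 1.14 to 1.19 in the other samples, and CTC minus WBC for Tyr was -0.20 there, against 0.083 to 0.13. The DP minus WBC difference was -0.038 in C1L for Sox10 (0.026 to 0.049 elsewhere), 0.020 in C1N for Mc1r (-0.080 to -0.066 elsewhere) and 0.13 in C1L for Mlana (at most 0.035 elsewhere). C1L held 3 CTC and 3 WBC. Of 70 groups examined 7 met this criterion, and chance alone meets it in about 1 in 20 groups.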

How the results depend on the processing

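Over the single genes, 831 recomputed values of tested differences stayed on their side of the threshold, 66 lost and 31 gained a call. Among the 831, 52 changed sign, each of a gene not called under either setting, and 2 further values changed sign for a gene called under at least 1 setting. Those 2 values were Pmel in DP minus WBC with lung cells only (0.0010, adjusted p = 1.00 in limma) and Mc1r in CTC minus WBC with scaling by the mean (0.074, adjusted p = 0.041). Of the culture minus naive WBC values 87 moved by less than the spread between cells, 9 of them with a change of sign, and 3 moved further. Of the 4 genes called in DP minus WBC, scaling by the mean gave 7 and the median over cells and lung cells only gave 0 each. Of the 5 in CTC minus WBC, scaling by the mean gave 9. Of the 2 in CTC minus DP, cells at or below the median noise, the median over cells, blood cells only and DP cells of the second coverage level only gave 0, and lung cells only, with 2 samples, gave 4; leaving out 1 sample gave 0 to 2. Of the 0 in blood minus lung DP cells, leaving out 1 sample gave 0 to 5, the 5 without P1. Of the 6 genes with wider spread, the median absolute deviation and DP cells of the lowest coverage level only gave 0, DP cells of the second level only gave 2, and the central bin alone gave 3. Leaving out 1 sample gave 3 to 6 there, 3 without C2R and 3 without C3R. Some of these settings moved all bins or left fewer cells or fewer samples. Why calls were lost or gained was not tested. Without the sample block that pairs the classes, 5, 6, 2, 0 and 6 genes were called in DP minus WBC, CTC minus WBC, CTC minus DP, blood minus lung and spread. In CTC minus DP the windows called went from 1325 to 861 without it, Pmel was lost (adjusted p = 0.055) and Dct gained (0.048). With the central bin alone, culture minus naive WBC was -0.76 for Dct and -0.24 for Mc1r. Over all windows, the 1801 calls in DP minus WBC became 1001 without C1L (the same as with at least 5 cells), 1093 without C2R, and 0 with the median over cells (1812 at an unadjusted p under 0.05 in limma) or lung cells only (186). The 1325 calls in CTC minus DP became 10 with DP cells of the second level and 0 without C1N, C1R or C2R, with low-noise cells, blood cells only or the median over cells (914 to 1527 unadjusted). The 2420 windows with wider spread became 1432 with the central bin, 601 with DP cells of the second level and 0 with the lowest level or the median absolute deviation (945 and 1549 unadjusted). Read depth is unknown, and the bins hold no detail below about 0.5 Mb.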
